A study of Rattus norvegicus with 35 samples.

Results

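The miR-200 family is a group of 5 microRNAs (miRNAs), miR-200a-3p, miR-200b-3p, miR-200c-3p, miR-141-3p and miR-429, measured here in rat liver. The members were taken by name from the table of miRNA counts, and 5 of its 763 rows are members. Small RNA was sequenced from livers of Sprague-Dawley rats, males aged 6 weeks. They were given ketoconazole by mouth, an antifungal azole that inhibits the making of sterols and can harm the human liver. Control rats received the vehicle, 0.5% methylcellulose, and dosed rats received 10 (low), 30 (middle) or 100 mg/kg (high) each day. Dosing lasted 3, 7 or 14 days, with the liver collected 24 h after it ended. Each of the 12 groups of dose and day had 3 libraries except the control of day 14, which had 2, so that there were 35 libraries. The labels do not say that replicates are separate rats, so p-values measure only the spread between these libraries, which may be technical.

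The family comes from hairpins at 2 separate places in the genome: in human and mouse, miR-200a, miR-200b and miR-429 are made from one transcript and miR-200c and miR-141 from another. Its members are known for repressing Zeb1 and Zeb2, transcription factors that shut off E-cadherin, and so for holding cells in the epithelial state. In liver the family is known as a mark of the bile duct epithelium, the cells that line the ducts, while hepatocytes make up most of the tissue. A miRNA finds its targets mainly through its seed, bases 2 to 8 from the 5′ end. The family has 2 seeds that differ at 1 base, 1 shared by miR-200b, miR-200c and miR-429 and the other by miR-200a and miR-141.

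The mature sequences of miR-200c-3p and miR-141-3p are shown because they carry the 2 seeds and are similar products of neighbouring hairpins. They are from RefSeq (assembly GRCr8), 5′ to 3′, with the seed in capitals, and both hairpins lie on the minus strand.
miR-200c-3p: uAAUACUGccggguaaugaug
miR-141-3p: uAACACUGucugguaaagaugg
Counted from the 5′ end and read from miR-200c-3p to miR-141-3p, the sequences differ at 4 of 21 shared bases, U4C, C9U, G11U and U17A, of which U4C lies in the seed. RefSeq gave the mature sequence for 2 of the 5 members; miR-200a-3p, miR-200b-3p and miR-429 are named only. How reads that fit several miRNAs were assigned is not given in the sources used here, so levels of members this alike are uncertain to that extent. In the RefSeq annotation the hairpins Mir200a, Mir200b and Mir429 all lie within the spans of Ttll10 and LOC106182250. Mir3548 overlaps Mir200a and Mir3575 overlaps Mir200c, and both of those miRNAs were listed at 0 in all 35 libraries.

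The libraries held 2665943 to 9665416 counts each (median 3758063), and all 5 members were among the 328 miRNAs that passed the filter on low counts. The libraries fell into 2 clusters on the first principal component, which held 46.2% of the variance. The 21 libraries of the middle dose, the high dose and the low dose on day 7 lay between 4.24 and 6.47, and the 14 control libraries and low dose libraries of days 3 and 14 between -14.49 and -4.32. Setting the high or middle dose against control, or the low dose on day 7, thus also sets one cluster against the other. The labels name no sequencing batch, and a batch and the dose cannot be told apart here. In bulk tissue, fewer cells of a type and less of the miRNA per cell cannot be told apart either, and the labelled tissue is whole liver, with no bile duct cells set apart.

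The levels of the members spanned about 2 orders of magnitude and kept nearly the same order in every library. Levels are given as CPM, each count as a rate in a library of one fixed size. Library sizes were scaled by TMM, a method that assumes that most miRNAs do not differ between libraries. That may not hold here, since 62.8% of the miRNAs tested were called in the high dose average. miR-200b-3p had the highest mean over the 35 libraries, 840.8 CPM, and ranked 60 of the 328 miRNAs tested. miR-200a-3p followed at 150.5 CPM (rank 115) and miR-429 at 140.1 CPM (rank 117). miR-141-3p had 57.18 CPM (rank 156) and miR-200c-3p 8.535 CPM (rank 252), which rested on only 10 to 91 counts per library. miR-200b-3p stood above miR-200a-3p, miR-200a-3p and miR-429 above miR-141-3p, and miR-141-3p above miR-200c-3p in 35 of 35 libraries. The exception to a fixed order was the pair miR-429 and miR-200a-3p. miR-429 was the higher of this pair in 0 of 8 control, 1 of 9 low dose, 5 of 9 middle dose and 9 of 9 high dose libraries.

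**Figure D1:**
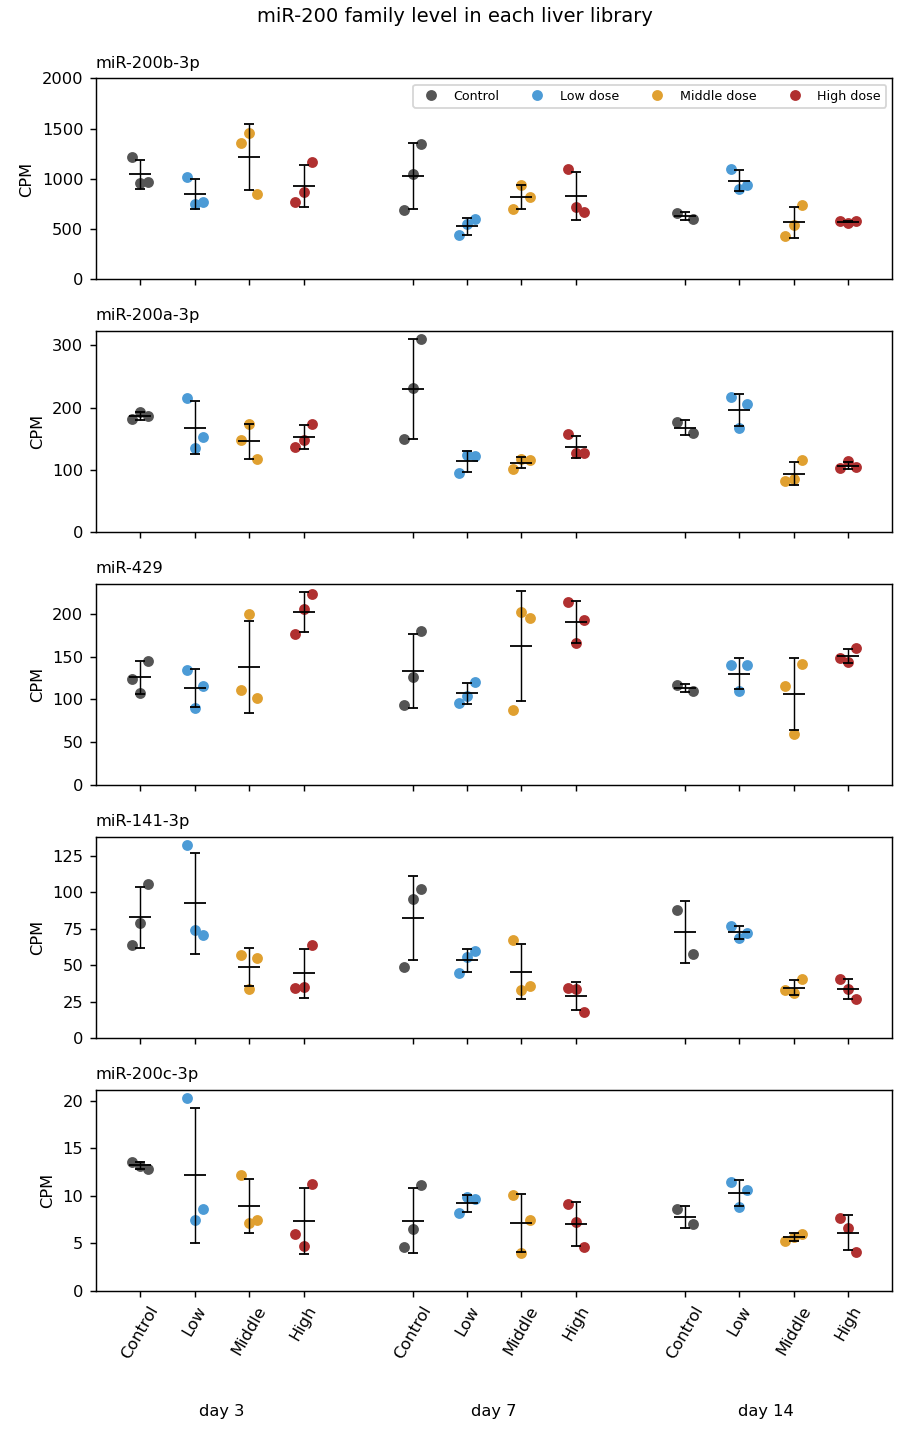
Level of each member in each library, in CPM on a linear axis from 0, by day and dose; each point is 1 library, the horizontal bar is the group mean and the error bar its SD (n = 3, or 2 for the control of day 14). miR-141-3p at the high dose lies below every control of the same day on all 3 days, and miR-429 at the high dose lies above every control on days 3 and 14.

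miR-141-3p, the less abundant carrier of the seed it shares with miR-200a-3p, was the member with the largest difference at the high dose. On day 3 it had 34.44, 34.88 and 63.92 CPM at the high dose, against 64.05, 78.62 and 105.7 CPM in controls. On day 7 it had 34.32, 33.87 and 17.66 CPM at the high dose, against 48.95, 95.32 and 102.2 CPM in controls. On day 14 it had 40.61, 33.58 and 27.09 CPM at the high dose, against 87.51 and 57.71 CPM in controls. All high dose libraries were below all control libraries of the same day on each of the 3 days. On day 3 the gap was narrow, with the highest high dose library at 63.92 CPM and the lowest control at 64.05 CPM. Groups that did not overlap were common: over the 328 miRNAs tested, high dose libraries lay wholly below controls in 22.9% on day 3, 29.9% on day 7 and 27.7% on day 14. Averaged over the days, the log2 fold change of miR-141-3p at the high dose was -1.17 ± 0.19 (standard error, SE), and it fell with an adjusted p of 3.664e-06 in edgeR's quasi-likelihood test. The fall passed on each day in the same test, by 0.90 ± 0.31 on day 3 (adjusted p = 0.02457), 1.50 ± 0.32 on day 7 (0.0002584) and 1.09 ± 0.35 on day 14 (0.01536).

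The call for miR-141-3p on day 3 was lost without control replicate 3 (log2 fold change -0.72), high dose replicate 1 (-0.74) or high dose replicate 2 (-0.75), and with no filter on low counts (-0.87). The call on day 14 was lost without control replicate 1 (-0.93) or high dose replicate 3 (-0.94). The average over days stayed between -1.28 and -1.08 when each of the 17 libraries was left out in turn, and passed each time.

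At the middle dose miR-141-3p had 56.97, 33.67 and 55.09 CPM on day 3, 67.17, 33.22 and 35.85 CPM on day 7, and 32.75, 30.86 and 40.33 CPM on day 14. They overlapped the controls on day 7 only, where middle dose replicate 1 was above the lowest control. Over all tested miRNAs, middle dose libraries lay wholly below controls for 22.3% on day 3, 22.3% on day 7 and 20.1% on day 14. The average fall at the middle dose was 0.89 ± 0.19 on the log2 scale (edgeR, adjusted p = 0.0001442). By day the values were -0.77 ± 0.31 on day 3 (adjusted p = 0.0507), -0.84 ± 0.32 on day 7 (0.02661) and -1.06 ± 0.34 on day 14 (0.02098). The day 3 value passed under 5 other settings, and without control replicate 1 (-0.93) or middle dose replicate 1 (-0.93). Leaving out single libraries ended the day 7 call for control replicates 2 (-0.71) and 3 (-0.62) and middle dose replicates 2 (-0.66) and 3 (-0.67), and it also failed with no filter on low counts (-0.73) or only the libraries of the groups compared (-0.84). The day 14 call was lost without control replicate 1 (-0.85) or middle dose replicate 2 (-1.03).

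miR-200a-3p, the more abundant carrier of the same seed, was also lower at the high and middle doses, by a smaller amount at the high dose. At the high dose it had 136.2, 148.3 and 174.4 CPM on day 3, against 181.2, 192.8 and 186 CPM in controls. On day 7 it had 157.6, 127.1 and 126.4 CPM at the high dose, against 149.8, 231.3 and 310.2 CPM in controls. On day 14 it had 102.7, 113.6 and 104.3 CPM at the high dose, against 176.5 and 159.6 CPM in controls. The high dose libraries lay wholly below the controls on days 3 and 14, as did 22.9% and 27.7% of all tested miRNAs. On day 7 the groups overlapped, and the controls spread over the widest range. The average fall at the high dose was 0.56 ± 0.12 on the log2 scale (edgeR, adjusted p = 0.0001476), where 31.4% of all miRNAs fell. For miR-200a-3p, 9 of 9 high dose libraries were below the control mean of their day, a count not made for all miRNAs. By day the log2 fold change was -0.29 ± 0.20 on day 3, which did not pass, -0.75 ± 0.20 on day 7 (edgeR, adjusted p = 0.002494) and -0.65 ± 0.22 on day 14 (0.02202). The day 7 call was lost without control replicate 3 (-0.41), with no filter on low counts (-0.51) or with only the compared groups fitted (-0.62), and the day 14 call without control replicate 1 (-0.74) or high dose replicate 3 (-0.62).

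At the middle dose miR-200a-3p had 147.3, 173.5 and 116.9 CPM on day 3, 102.3, 117.7 and 115.7 CPM on day 7, and 82.2, 85.38 and 115.2 CPM on day 14. Every one of these 9 libraries was below every control of its day. Over all tested miRNAs, middle dose libraries lay wholly below controls for 22.3% on day 3, 22.3% on day 7 and 20.1% on day 14. The share that did so on all 3 days was not counted. The average fall was 0.74 ± 0.12 on the log2 scale (edgeR, adjusted p = 3.759e-06). By day it was -0.35 ± 0.20 on day 3 (edgeR, adjusted p = 0.1614), -1.04 ± 0.20 on day 7 (8.003e-05) and -0.83 ± 0.22 on day 14 (0.005029).

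miR-429, made in human and mouse from the same transcript as miR-200a-3p and miR-200b-3p, was the only member that rose at the high dose. It had 176.6, 206.1 and 222.8 CPM on day 3 at the high dose, against 124.2, 107.7 and 145.3 CPM in controls. On day 7 it had 214.1, 165.4 and 193.1 CPM at the high dose, against 93.55, 126.2 and 179.6 CPM in controls. On day 14 it had 148.6, 143.9 and 160.1 CPM at the high dose, against 117 and 110.1 CPM in controls. The high dose libraries were wholly above the controls on days 3 and 14, as were 25% and 31.4% of all tested miRNAs, and overlapped them on day 7 through 1 control of 179.6 CPM. The average rise at the high dose was 0.54 ± 0.17 on the log2 scale (edgeR, adjusted p = 0.006664), where 31.4% of all miRNAs rose. For miR-429, 9 of 9 high dose libraries were above the control mean of their day. How many of all miRNAs did the same was not counted. On no single day did miR-429 pass, with log2 fold changes of 0.68 ± 0.28 on day 3 (adjusted p = 0.05657), 0.52 ± 0.28 on day 7 (0.1182) and 0.41 ± 0.32 on day 14 (0.3393). The day 3 value passed without control replicate 3 (0.77) and under 4 of the other settings, and the day 7 value without control replicate 3 (0.85) and under 3 of them.

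miR-429 was uneven at the middle dose, with 111.2, 200.1 and 102.1 CPM on day 3, 87.84, 202.6 and 195.5 CPM on day 7, and 116.3, 59.73 and 141.8 CPM on day 14. Within the groups of days 3 and 7, libraries reached both the levels of the controls and those of the high dose, and on day 7 the SD was 64.29 CPM around a mean of 162 CPM. The average log2 fold change against control was 0.10 ± 0.17 (edgeR, adjusted p = 0.6109).

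miR-200b-3p, the most abundant member, did not pass in the average of any dose. On day 3 it had 766.6, 867.2 and 1165 CPM at the high dose, against 1215, 960.8 and 966 CPM in controls. On day 7 it had 1102, 718.5 and 671.4 CPM at the high dose, against 695.1, 1048 and 1347 CPM in controls. On day 14 it had 577.6, 566.3 and 579.4 CPM at the high dose, against 656.6 and 605.5 CPM in controls. The groups overlapped on days 3 and 7, and on day 14 all 3 high dose libraries lay below both controls by a small margin. On that day 27.7% of all tested miRNAs lay wholly below controls. The average log2 fold change was -0.20 ± 0.14 at the high dose (edgeR, adjusted p = 0.1899) and -0.08 ± 0.14 at the middle dose (0.6109).

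miR-200c-3p, which shares its seed with miR-200b-3p and miR-429, was the least abundant member and the one with the least precise values. On day 3 it had 5.955, 4.725 and 11.28 CPM at the high dose, against 13.59, 13.1 and 12.86 CPM in controls, and lay wholly below them, as did 22.9% of all tested miRNAs. On day 7 it had 9.178, 7.258 and 4.568 CPM at the high dose, against 4.574, 6.474 and 11.14 CPM in controls. On day 14 it had 7.615, 6.633 and 4.043 CPM at the high dose, against 8.632 and 6.981 CPM in controls, and the groups overlapped on both of these days. Its average log2 fold change at the high dose was -0.41 ± 0.23 (edgeR, adjusted p = 0.1175), which passed without high dose day 3 replicate 3 (-0.56, adjusted p = 0.03243). On day 3 alone it was -0.85 ± 0.35 (adjusted p = 0.06182). That value passed without high dose replicate 3 (-1.30) and with the stricter filter on low levels (-0.90).

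Among the 5 members, 1 rose and 2 fell in the average of the high dose, in a comparison where 62.8% of all 328 miRNAs passed, 31.4% in each direction. The median log2 fold change was -0.41 over the members and -0.04 over all miRNAs tested. In the middle dose average 2 members fell and none rose, where 61.9% of all passed and 29.9% of all fell. By day at the high dose 1 member fell on day 3, where 35.1% of all miRNAs passed and 16.2% of all fell. On day 7 the count was 2 (51.8% of all passed, 27.7% lower), and on day 14 it was also 2 (35.4% passed, 13.4% lower). For the middle dose by day, no member passed on day 3, where 38.1% of all did. On day 7 2 members fell (50.9% of all passed, 23.8% lower), and on day 14 2 fell (28.4% passed, 10.1% lower). The high dose and middle dose comparisons share their control libraries. Without day 7, the day on which the low dose libraries joined the treated cluster, the high dose average was -1.0 for miR-141-3p, -0.47 for miR-200a-3p and 0.55 for miR-429, and all 3 passed.

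**Figure D2:**
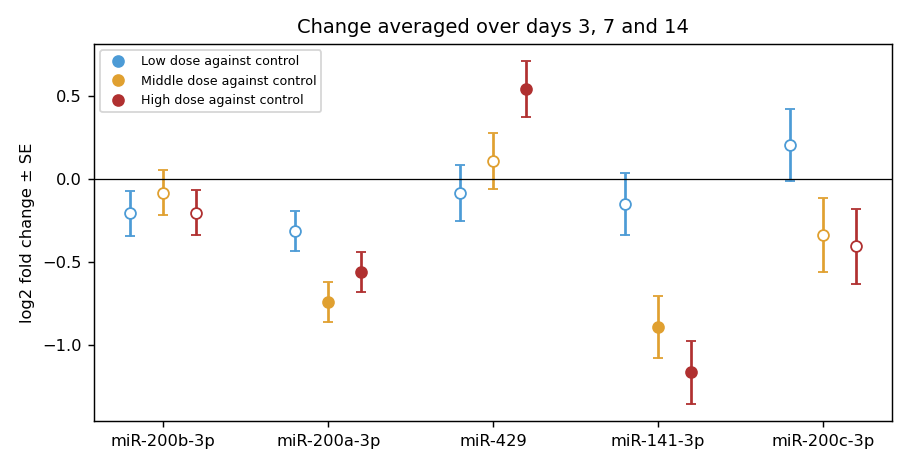
Log2 fold change of each member at each dose, averaged over days 3, 7 and 14; filled points passed an adjusted p of 0.05 in edgeR's test and error bars are SE (9 dosed and 8 control libraries). miR-141-3p and miR-200a-3p are lower at the middle and high doses, miR-429 is higher at the high dose only, and no member passed at the low dose.

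The make-up of the family within a library was described by ratios of counts, which do not depend on the scaling between libraries. The ratio of miR-429 to miR-200a-3p had a geometric mean of 1.374 at the high dose (range 1.266 to 1.534), against 0.6369 in controls (range 0.5462 to 0.7812). All 9 high dose libraries were above all 8 controls, and the ratio was 2.14-fold higher, a log2 difference of 1.10 ± 0.13 (exact permutation test within days, two-sided, p = 0.00025, adjusted p = 0.00167 over 40 tests). That p is the smallest these permutations can give. Over all 53628 pairs of tested miRNAs, 24.2% of ratios did not overlap between high dose and control libraries. In middle dose libraries the same ratio had a geometric mean of 1.097, over a range of 0.6998 to 1.72, and the log2 difference from control was 0.78 ± 0.13 (exact permutation test, adjusted p = 0.0122). For the middle dose, 19.8% of all pairs did not overlap the controls.

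The ratio of miR-429 to miR-200b-3p, members with the same seed and hairpins at the same place, had a geometric mean of 0.2379 at the high dose (range 0.1912 to 0.2877) and 0.1367 in controls (range 0.1023 to 0.1819). Again no high dose library reached the controls, and the ratio was 1.69-fold higher, a log2 difference of 0.76 ± 0.15 (exact permutation test, adjusted p = 0.00167). In middle dose libraries the difference was 0.13 (adjusted p = 0.646, exact permutation test). Between the doses, the ratio was higher at the high than at the middle dose by 0.62 ± 0.15 on the log2 scale (exact permutation test, adjusted p = 0.019), a comparison with no control library in it.

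The ratio of miR-200a-3p to miR-200b-3p was lower at the middle dose than in controls by a log2 difference of -0.64 ± 0.07 (exact permutation test, adjusted p = 0.00167). At the high dose the difference was -0.34 ± 0.07 (adjusted p = 0.0122, exact permutation test). The median of the ratios within libraries was 0.1778 at the high dose and 0.2182 in controls. Taking the median CPM of each member first, with days pooled, gave -0.11, a value that does not keep the members of a library together. The high dose ratio was above the middle dose ratio by 0.30 ± 0.07 (exact permutation test, adjusted p = 0.0122). The ratio was lowest at the middle dose. The call against control at the high dose was lost without day 7, at -0.32 (exact permutation test, adjusted p = 0.123), where only 200 permutations remain, and with the replicate number as a block, at -0.32 (adjusted p = 0.0721).

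The ratio of miR-141-3p to miR-200c-3p, from the other place in the genome, was lower at the high dose than in controls. The log2 difference was -0.72 ± 0.13 (exact permutation test, adjusted p = 0.0233). Here 8 of 9 high dose libraries were below the control mean of their day, a count not made for all pairs of miRNAs. Without day 7 the log2 difference was -0.35 (exact permutation test, adjusted p = 0.311). For the middle dose it was -0.53 (exact permutation test, adjusted p = 0.0233). The geometric mean ratio on day 7 was 4.012 at the high dose, against 11.09 in controls, and on day 3 it was 6.134 at the high dose, against 6.105 in controls. The gap was wide on day 7, while the means were close on day 3. The control ratio itself was higher on day 7 than on day 3, and it rested there on 18 to 39 counts of miR-200c-3p per library.

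Members were also grouped by the transcripts known from human and mouse, which were not checked in rat. So grouped, the sum of miR-200c-3p and miR-141-3p fell relative to the sum of the other 3 members at the high dose, by 0.93 ± 0.20 on the log2 scale (exact permutation test, adjusted p = 0.00167). This ratio mostly sets miR-141-3p against miR-200b-3p. In controls miR-141-3p held 6.04% of the family's counts, miR-200c-3p 0.72% and miR-200b-3p 68.89%. It is no measure of a shift shared by all members of a transcript, since miR-429 rose and miR-200a-3p fell. Grouped by seed, the sum of miR-200a-3p and miR-141-3p fell relative to the other 3 by 0.61 ± 0.09 at the high dose and by 0.70 ± 0.09 at the middle dose (exact permutation tests, adjusted p = 0.00167 each). By counts this ratio mostly sets miR-200a-3p, 14.87% of the family in controls, against miR-200b-3p. It is no measure of a shift shared by a seed, since the high dose averages of the other 3 were 0.54 for miR-429, -0.20 for miR-200b-3p and -0.41 for miR-200c-3p. The transcript ratio at the middle dose differed by -0.68 (exact permutation test, adjusted p = 0.0331), a call lost when any of 10 single libraries was left out. At the low dose 0 of the 10 ratios passed in tests averaged over days, and single days were not tested. The low dose log2 difference for miR-429 to miR-200a-3p was 0.03 on day 3, 0.70 on day 7 and -0.03 on day 14. For miR-429 to miR-200b-3p it was 0.15, 0.65 and -0.45, and for miR-200a-3p to miR-200b-3p 0.13, -0.05 and -0.42. The average over days thus does not describe day 7 for the ratios of miR-429.

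**Figure D3:**
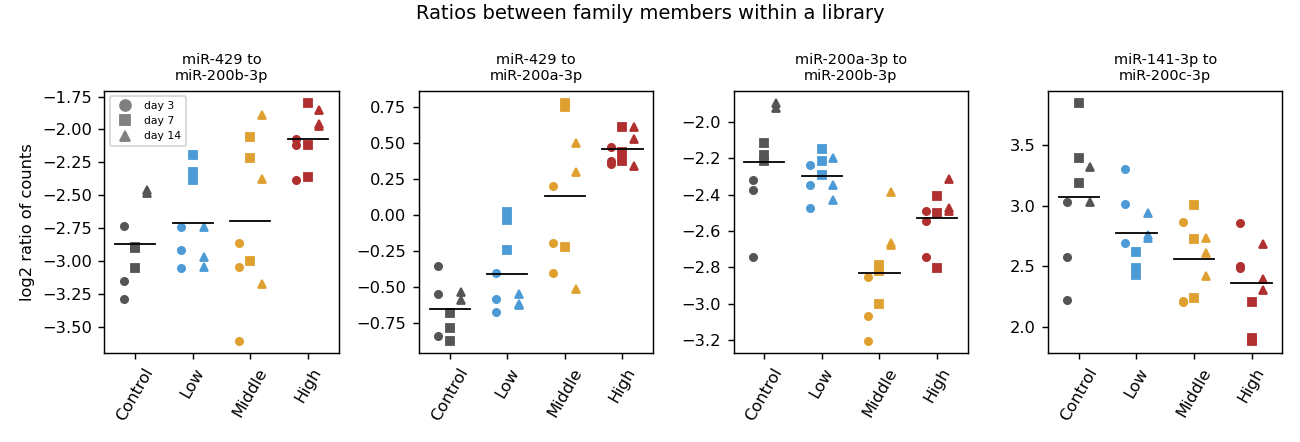
Log2 ratio of counts between members in each library, by dose, for 4 of the 10 ratios tested; each point is 1 library, its shape gives the day and the line is the mean over libraries. Every high dose library lies above every control library for miR-429 to miR-200a-3p and for miR-429 to miR-200b-3p, and the middle dose libraries spread over both ranges.

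As a share of the family's counts, miR-429 made up 9.49% ± 1.46 in controls (SD, n = 8), 10.6% at the low dose, 11.88% ± 4.02 at the middle dose and 16.28% ± 1.76 at the high dose (SD, n = 9 for each dose). miR-141-3p made up 6.04% ± 1.39 in controls, 6.37% at the low dose, 3.96% at the middle dose and 3.18% ± 0.88 at the high dose. miR-200a-3p held 14.87% ± 1.92 in controls, 13.86% at the low dose, 10.34% at the middle dose and 11.81% ± 0.85 at the high dose. The share of miR-200b-3p was 68.89% ± 4.06 in controls and 68.13% ± 2.47 at the high dose, and it was highest at the middle dose at 73.17%. The summed level of the family overlapped widely between doses, at 1350 ± 346.2 CPM in controls, 1147 ± 302.7 CPM at the low dose, 1173 ± 400.3 CPM at the middle dose and 1135 ± 283.7 CPM at the high dose (SD, n = 8 for controls and 9 for each dose).

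**Figure D4:**
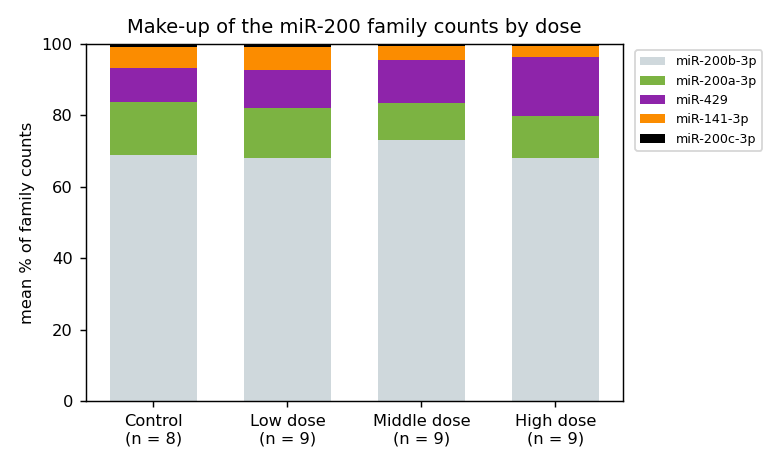
Mean share of each member in the summed counts of the family, in percent, for controls and the 3 doses. The share of miR-429 is 16.28% at the high dose and 9.49% in controls, and that of miR-141-3p is 3.18% at the high dose and 6.04% in controls.

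At the low dose no member passed in the average over days, where 22.6% of all miRNAs did; without day 7, 0 of all passed. The nearest was miR-200a-3p at -0.32 ± 0.12 (edgeR, adjusted p = 0.05633), which passed under 5 of the other settings and when any of 9 single libraries was left out. The average of miR-200b-3p was -0.21 ± 0.14 (edgeR, adjusted p = 0.2918) and passed without control day 7 replicate 1 (-0.34). The lower values were those of day 7. There miR-200a-3p had 94.41, 123.5 and 123 CPM at the low dose, against 149.8, 231.3 and 310.2 CPM in controls, and miR-200b-3p had 439.3, 547.6 and 603 CPM at the low dose, against 695.1, 1048 and 1347 CPM in controls. Both members lay wholly below the controls, as did 20.4% of all tested miRNAs. miR-200a-3p fell by 1.02 ± 0.20 (edgeR, adjusted p = 9.523e-05) and miR-200b-3p by 0.96 ± 0.23 (0.0007725) on the log2 scale, so that 2 of 5 members passed where 45.1% of all did and 18.6% of all fell. miR-141-3p, with 44.78, 55.56 and 59.96 CPM at the low dose, differed by -0.62 ± 0.31 (adjusted p = 0.1099), a value that passed without control replicate 1 (-0.95).

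On days 3 and 14 no member passed at the low dose. edgeR called 0% of all miRNAs on either day, with 25 miRNAs at an unadjusted p under 0.05 on day 3 and 11 on day 14, and DESeq2 called 0 on both days. On day 14 miR-200b-3p had 1102, 904.9 and 942.6 CPM at the low dose, against 656.6 and 605.5 CPM in controls, without overlap (11.3% of all miRNAs lay wholly above) and opposite to day 7, at a log2 fold change of 0.64 ± 0.26 (edgeR, adjusted p = 0.9926). The 2 controls of day 14 had a mean of 631.1 CPM, against 1047 CPM in controls of day 3 and 1030 CPM in those of day 7. The low dose mean on day 14 was 983.2 CPM. Within the low dose, with no control library in the comparison, miR-200a-3p was lower on day 7 than on days 3 and 14 by 0.68 ± 0.18 (edgeR, adjusted p = 0.003455) and miR-200b-3p by 0.79 ± 0.20 (0.002811). In that comparison 30.2% of all miRNAs passed, and 7.62% of all were lower. In a test of the difference between days, the low dose effect was lower on day 7 than on day 3 for 1 member, miR-200a-3p, where 32.3% of all miRNAs passed and 10.7% of all were lower. Against day 14 it was lower for 2 members, miR-200a-3p and miR-200b-3p, where 33.2% of all passed and 11.9% of all were lower.

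The treated doses were also set against each other. On day 7, miR-429 was higher at the high than at the low dose by 0.84 ± 0.28 (edgeR, adjusted p = 0.02969) and miR-200b-3p by 0.65 ± 0.23 (0.03436), while miR-141-3p was lower by 0.89 ± 0.32 (0.0421). Of all miRNAs 24.1% passed there, 7.01% higher and 17.1% lower. All of these libraries belong to the same cluster. The 2 rises were each lost without low dose replicate 1 (0.76 for miR-429 and 0.53 for miR-200b-3p), low dose replicate 2 (0.82 and 0.67) or high dose replicate 1 (0.74 and 0.39). The fall of miR-141-3p was lost under 8 other settings and without any of 5 of the 6 libraries (-1.04 to -0.47). Between the high and middle doses, averaged over days, no member passed, where 17.4% of all did. miR-429 was the nearest at 0.43 ± 0.16 (edgeR, adjusted p = 0.06178), and passed under 6 other settings, at 0.42 to 0.50, and without any of 6 single libraries. Between the middle and low doses on day 7 no member passed, where 10.1% of all did. There miR-200b-3p, at 0.63 ± 0.23 (edgeR, adjusted p = 0.06829), passed under 4 other settings and without middle dose replicate 1 (0.82). miR-429, at 0.60 ± 0.28 (edgeR, adjusted p = 0.1866), passed without the same library (0.98).

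Between days within the high and middle doses (day 7 or 14 against day 3), miR-200b-3p at the middle dose was the only member that passed. It had 430.7, 541.5 and 737.7 CPM on day 14, against 1357, 1455 and 846.3 CPM on day 3. It was lower on day 14 by 1.10 ± 0.23 on the log2 scale (edgeR, adjusted p = 0.00204), with no overlap, and was 1 of 14 miRNAs called there (4.27% of all, with 2.74% lower). With the replicate number as a block the value was -1.25 and no longer passed (edgeR, adjusted p = 0.06356), and 1 miRNA was called over all. At the high dose the same comparison gave -0.70 ± 0.23 (edgeR, adjusted p = 0.07643; 0.915% of all passed), and between controls of days 14 and 3 it gave -0.73 ± 0.26 (0.3195; 0% passed). Between controls of days 7 and 3 no member passed, where 1.52% of all did. The effect of the high dose on days 7 and 14 was not shown to differ from that on day 3 for any member. There 0% of all miRNAs passed in edgeR on either day, with 36 at an unadjusted p under 0.05 for day 7 and 24 for day 14, and DESeq2 called 0.

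The other arms of the same hairpins, which do not carry the family's seeds, were much less abundant. Their sequences are given, from RefSeq (GRCr8) with bases 2 to 8 in capitals, because the arms of a hairpin do not share a seed; all 4 hairpins lie on the minus strand.
miR-200a-5p: cAUCUUACcggacagugcugg
miR-200b-5p: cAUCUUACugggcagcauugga
miR-141-5p: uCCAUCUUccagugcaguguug
miR-200c-5p: cGUCUUACccagcaguguuug
miR-200a-5p and miR-200b-5p have the same seed. miR-200a-5p had a mean of 9.777 CPM and miR-200b-5p 3.874 CPM, and these 2 of the 4 arms passed the filter. Neither differed at the high dose in the average over days, at -0.05 ± 0.19 for miR-200a-5p (edgeR, adjusted p = 0.8429) and -0.16 ± 0.24 for miR-200b-5p (0.594). At the low dose on day 7, miR-200a-5p fell with its partner arm, by 1.30 ± 0.33 on the log2 scale (edgeR, adjusted p = 0.001324). This was not particular to the low dose. At the middle dose on day 7, 1 of the 2 tested arms was lower and 0 higher, where 23.8% of all miRNAs were lower. There miR-200a-5p had a mean of 8.306 CPM, against 14.54 CPM in controls. The ratio of miR-200a-3p to miR-200a-5p at the high dose differed from control by -0.50 ± 0.18 (exact permutation test, adjusted p = 0.0773). For miR-141 the arm ratio differed by -0.73 ± 0.53 (exact permutation test, adjusted p = 0.206), over a 5p arm of 0 to 8 counts per library, so that no difference was detectable at this depth. miR-200c-5p had 2 counts in all, and a ratio over it only restates miR-200c-3p.

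The profile of each member over the 12 groups was set against those of 321 other miRNAs by the root mean square (RMS) difference of centred log2 levels, where 0 means the same profile. miR-25-3p (0.177) and miR-181c-3p (0.199) were closest to miR-200a-3p, and miR-466b-3p (0.189) and miR-466c-5p (0.203) to miR-141-3p. miR-499-5p (0.206) and miR-20a-5p (0.209) were closest to miR-429, miR-181d-5p (0.256) and miR-362-5p (0.267) to miR-200b-3p, and miR-362-5p (0.246) and miR-27b-3p (0.264) to miR-200c-3p. Within the family the RMS difference was smallest between miR-200a-3p and miR-200b-3p, at 0.292, and reached 0.736 between miR-429 and miR-141-3p. Over the group means, each member had miRNAs outside the family nearer to it than any other member was. With 321 miRNAs outside the family and few inside, this was likely whatever the family did, so no conclusion is drawn from it. The median RMS difference from the 321 ran from 0.445 for miR-200c-3p to 0.589 for miR-141-3p. Over the 35 libraries an outside miRNA was not the nearest for every member, since miR-200b-3p was nearest to miR-200a-3p (0.303, against 0.351 for miR-181d-5p) and miR-200c-3p to miR-141-3p (0.418, against 0.433 for miR-181d-5p).

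Other miRNAs known from epithelia were measured in the same libraries. Of 8 such miRNAs tested, 4 rose and 1 fell in the average of the high dose, against 31.4% of all miRNAs in each direction. miR-203b-3p rose by 1.95 ± 0.14, miR-205 by 1.42 ± 0.34, miR-203a-3p by 1.14 ± 0.10 and miR-182 by 0.78 ± 0.13 on the log2 scale, and miR-31a-5p fell by 0.52 ± 0.10 (edgeR). miR-375-3p, at 0.11, miR-183-5p, at 0.10, and miR-96-5p, at 0.03, did not pass. The summed level of the 8 was 4663 to 6436 CPM at the high dose and 4358 to 6265 CPM in controls. The sum sets opposite changes against each other. Its most abundant part, miR-31a-5p, had a mean of 2295 CPM at the high dose and 3389 CPM in controls. miR-182 had 1634 and 984.5 CPM, and miR-203a-3p 1009 and 450.4 CPM.

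Marker miRNAs of other liver cell types were set against control in the average of the high dose, where 31.4% of all miRNAs passed in each direction. Their part in the values of the family was not tested. Endothelial markers summed to 18909 to 22701 CPM at the high dose and 28706 to 37855 CPM in controls, and 2 of 2 fell. Stellate cell and smooth muscle markers summed to 45925 to 60539 CPM at the high dose and 36357 to 49768 CPM in controls, with 2 of 5 higher and 1 lower. Hepatocyte markers summed to 239748 to 287535 CPM at the high dose and 226912 to 309919 CPM in controls, with 2 of 6 higher and 4 lower. White blood cell markers had 3 of 5 lower and 0 higher, at sums of 1805 to 2839 CPM at the high dose and 1539 to 3127 CPM in controls. Red blood cell markers had 1 of 4 higher and 1 lower, at 2262 to 4623 CPM at the high dose and 1521 to 4148 CPM in controls. No marker on these lists was at 0 in all libraries.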

How the data were processed

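Liver RNA was isolated with RNeasy Plus Universal Mini kits and turned into libraries with Illumina's TruSeq Small RNA kits, per the labels' protocols. The authors deposited raw counts per mature miRNA, without normalization; the genome build was rn6, per the submitters' processing notes. Aligner, counter and miRNA annotation: not given in the sources used here. Middle dose day 14 replicates 2 and 3 had 2 runs each, which were summed.

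Counts were fitted in edgeR 4.0.16 (R 4.3.3) with TMM, 1 mean per group over all 35 libraries, 23 residual degrees of freedom, filterByExpr (minimum count 10, minimum total 15) and robust quasi-likelihood F-tests. p-values were adjusted by Benjamini-Hochberg over the 328 miRNAs within each comparison, at 0.05. Each SE of an edgeR value is the size of the log2 fold change over the square root of F. Each SE of a ratio rests on the SD within the 12 groups, pooled over all 35 libraries. Of the 763 rows, 151 were at 0 in all libraries. Ratios used counts plus 0.5 and exact permutations of labels within days, adjusted over 40 tests (10 ratios, 4 comparisons).

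Members and lists were chosen with earlier results of these data known; members and their 5p arms were always named, as were the 2 miRNAs with the smallest RMS difference from each member. 4 comparisons of days within a dose were added after the data were seen. Reads carry no stated molecular identifiers, so depth limits counting error only. The steps were tested on simulated counts. Alternatives were DESeq2 1.42.0 and its size factors, library size alone, other filters, thinning to 2665943 counts, either run alone, only the groups compared, no day 7, a replicate block, a pseudocount of 5, and each library left out. Same-numbered replicates of a day did not deviate together (median r -0.01 over 51 pairs, and -0.01 over 102 pairs of other numbers), so numbers were not taken as pairs. Figures were drawn with matplotlib 3.10.9.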

Additional observations from a re-analysis of the deposited data

Results flagged for a closer look

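The effect of the low dose on miR-200a-3p and miR-200b-3p differed between days in a test of the difference itself. For miR-200a-3p the log2 effect on day 7 minus that on day 3 was -0.87 ± 0.28 (edgeR, adjusted p = 0.01855; 32.3% of all miRNAs passed, 10.7% of all with a lower effect). It was lost without control day 7 replicate 3 (-0.64), low dose day 3 replicate 1 (-0.64) or low dose day 7 replicate 1 (-0.75), and with only the compared groups fitted (-0.89). Day 7 minus day 14 was -1.24 ± 0.30 for miR-200a-3p (edgeR, adjusted p = 0.001949) and -1.60 ± 0.34 for miR-200b-3p (0.0005295), where 33.2% of all miRNAs passed and 11.9% of all were lower. For miR-200b-3p this value also takes in a low mean in the 2 controls of day 14, 631.1 CPM, against 1030 CPM in controls of day 7. Within the low dose, with no control, day 7 differed from days 3 and 14 by -0.79 ± 0.20 for miR-200b-3p. The low dose libraries of day 7 lay in the cluster of the middle and high doses, and those of days 3 and 14 with the controls.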

How the results depend on the processing

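The average high dose values of the 5 members kept their direction and their side of the threshold under 11 settings: -1.24 to -1.0 for miR-141-3p, -0.64 to -0.47 for miR-200a-3p, 0.46 to 0.62 for miR-429, -0.27 to -0.12 for miR-200b-3p and -0.59 to -0.31 for miR-200c-3p. Leaving out 1 library in turn did the same except for miR-200c-3p (-0.56 to -0.26). For the high dose against control, the ratio of miR-200a-3p to miR-200b-3p was -0.32 without day 7 and -0.32 with the replicate block (adjusted p = 0.0721, exact permutation test). It was -0.11 from the median CPM of each member with days pooled, which does not keep the members of a library together. The ratio of miR-141-3p to miR-200c-3p was -0.35 without day 7 and -0.75 with the replicate block (adjusted p = 0.104, exact permutation test). The 3p to 5p ratio of miR-200a passed with a pseudocount of 5, at -0.52, and ran from -0.63 to -0.41 with 1 library left out. That of miR-141 was -0.98 with a pseudocount of 5, which nearly fixes a 5p arm of 0 to 8 counts and so restates miR-141-3p, and ran from -1.12 to -0.34 with 1 library left out. The cause of the other changes was not tested. Of all comparisons of a member or a ratio with another setting, 26 of 1514 lost a call and 47 gained one, and with 1 library left out 41 of 1786 lost a call and 35 gained one. Only comparisons that passed as reported could lose a call, so these counts give no rate of loss among the calls, which would be higher. The sign changed in 72 of the 1514 and 95 of the 1786, and 0 of these had passed as reported. With the replicate block, miR-200b-3p at the middle dose no longer passed between days 14 and 3 (-1.25, edgeR adjusted p = 0.06356), where 1 miRNA was called over all, against 14 as reported. Over all miRNAs, call numbers also changed between the high and low doses on day 7 (45 with no filter on low counts, 79 in the fit as reported) and between high dose days 14 and 3 (33 on library size alone and 23 in DESeq2, 3 as reported). Fitting only the groups compared gave 57 calls for the middle dose on day 14 (93 as reported), and leaving out day 7 gave 30 between the high and middle doses (57). The share of higher calls depended on scaling. On library size alone it was 41.3% for the middle dose average (51.7% as reported), 41.3% for the high dose on day 14 (62.1%), 37.9% for the middle dose on day 14 (64.5%) and 68.1% for the high over the middle dose (45.6%), while the median over all miRNAs moved to -0.17 for the middle dose average (-0.02 as reported). With DESeq2's size factors it was 59.3% for the low dose average (73%), 54% between the high and low doses on day 7 (29.1%) and 52.3% for the low dose on day 7 against its other days (74.7%). miR-200c-3p, at 10 to 91 counts per library, is the member whose values depth limits most.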
